A study of Rattus norvegicus with 24 samples.

Results

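Receptors that bind inhaled particles, altered lipoproteins, dead cells and microbial surfaces were followed as transcripts in the lungs of rats exposed to cigarette smoke, mineral particles or both. The set was named by gene symbol and comprised 9 receptors, of which 7 had a probe set on the array annotated with that symbol alone (Cd36, Scarb1, Mrc1, Cd163, Clec7a, Tlr2 and Tlr4), among 14217 genes measured. Marco and Msr1, the class A scavenger receptors of the set, were not analysed here. Each gene was represented by its brightest such probe set over the arrays, a rule that uses the mean over all rats and no difference between groups.

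The RNA came from the right caudal lobe of the lungs of 24 male CD Sprague-Dawley rats, which are outbred, and each rat was measured on 1 Affymetrix expression array. The animals were labelled as 17 weeks old, while the series text gives 10 to 15 weeks. They formed 6 groups of 4, crossing a nose-only exposure to air or cigarette smoke with a whole-body exposure to air, Iraqi sand or silica, which the series text calls manufactured. Smoke, set by its wet total particulate matter to 0.48 mg/L, was given 3 hours per day on 5 days per week; the protocol has 5 weeks of it, the series text 6. Both particles were given at 1 mg per cubic metre, 18 hours per day (18 to 19 in the series text) on 7 days per week, during 2 weeks. Each sample title carries the label 7w. How the particle weeks fell against the smoke weeks is not given here. The groups are called air, sand, silica, smoke, smoke plus sand and smoke plus silica below; the control rats inhaled air by both routes. The series text names 17 rats per group, of which 4 per group were on arrays here. Its title speaks of synergism between Iraqi sand and smoke.

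Scavenger receptors are membrane proteins of several unrelated folds that share an affinity for negatively charged or oxidised ligands, and alveolar macrophages carry many of them on the surface that meets inhaled dust. Cd36 is a class B scavenger receptor for oxidised lipoproteins and long-chain fatty acids, found on macrophages, capillary endothelium and adipocytes, and Scarb1 is its relative that binds high-density lipoprotein. Mrc1, the mannose receptor, and Clec7a, known as dectin-1, are C-type lectins that bind mannose and beta-glucan on microbes. Cd163 takes up haemoglobin bound to haptoglobin, and Tlr2 and Tlr4 are Toll-like receptors that signal to NF-kappaB on bacterial lipoproteins and lipopolysaccharide.

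Of these, Cd36, Mrc1 and Clec7a had the pairwise values that followed each other most closely from rat to rat (given further on), so the stretch of 250 bases upstream of each annotated transcription start is shown, from the RefSeq promoter table of rat assembly GRCr8, which held 6 of the 7 genes (Scarb1 was not among them). The files of the study name no genome build, and these windows are annotation, not a measurement. Capitals mark GAGGAA or its reverse complement TTCCTC, the core recognised by the macrophage factor PU.1.
Cd36, chr4:18246332-18246581, plus strand: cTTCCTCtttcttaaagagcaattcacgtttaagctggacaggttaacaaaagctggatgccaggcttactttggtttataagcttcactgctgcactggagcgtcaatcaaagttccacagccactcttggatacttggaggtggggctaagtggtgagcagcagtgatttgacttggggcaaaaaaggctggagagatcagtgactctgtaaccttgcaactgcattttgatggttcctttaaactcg
Mrc1, chr17:82157475-82157724, plus strand: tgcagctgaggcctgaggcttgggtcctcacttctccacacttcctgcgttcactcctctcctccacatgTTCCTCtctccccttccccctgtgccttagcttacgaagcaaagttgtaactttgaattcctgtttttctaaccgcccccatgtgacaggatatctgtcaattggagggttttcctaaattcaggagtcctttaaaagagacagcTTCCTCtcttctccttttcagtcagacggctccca
Clec7a, chr4:164599828-164600077, minus strand: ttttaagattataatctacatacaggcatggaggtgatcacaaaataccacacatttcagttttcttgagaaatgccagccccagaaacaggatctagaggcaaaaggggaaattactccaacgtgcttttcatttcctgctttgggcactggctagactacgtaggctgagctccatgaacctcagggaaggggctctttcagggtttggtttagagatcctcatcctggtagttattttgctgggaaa
The PU.1 core was found once in the Cd36 window, 249 bases before the start, and at 180 and 35 bases before the start of Mrc1, in each case on the strand opposite to the gene. It was not found in the Clec7a window. Among the other windows, Tlr4 held it at 67 and 55 bases, and those of Cd163 and Tlr2 had no match. Of 33469 promoter windows of the same length in the table, 23.3% held it on either strand. The core of the antioxidant response element, TGACNNNGC, which can overlap a half-site of nuclear receptors, AGGTCA, was searched on both strands as well. It was in none of the 6 windows against 10.1% of all, and the half-site was in the Tlr4 window alone, against 14.1% of all. These matches describe letters in a window and no binding.

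The values were log2 intensities after robust multi-array averaging (RMA), so that a difference of 1 is a doubling. Levels of different receptors are not set against each other, as probes differ in brightness. Array medians lay between 7.26 and 7.32. Markers of alveolar type 2 cells, such as the surfactant protein genes, averaged between 12.58 and 13.11 in every rat, as in lung tissue. The array of rat 302, of the sand group, stood apart, its correlation with the others averaging 0.944 against 0.98 to 0.99 for the rest. In that rat 12 heart muscle markers averaged 9.28 against 5.83 ± 0.12 (SD) in its 3 mates, and 8 airway secretory markers averaged 10.96 against 8.88 ± 0.17. Rat 104 of the air group had a heart muscle mean of 9.38 against 6.26 ± 0.23 in its mates, and rat 604 of the smoke plus silica group a mean of 10 proliferation markers of 8.43 against 7.15 ± 0.19. Values that rest on rat 302 are mostly given with and without it, and some also without all 3 rats. For Cd36, differences from the air group are also given without rat 104. Differences were tested with limma over all 14217 genes in 1 fit of the 6 group means, two-sided, with Benjamini-Hochberg adjustment and a threshold of 0.05, and errors of differences are standard errors.

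Cd36 was the only one of the 7 receptors that passed this threshold in any of the 12 comparisons made. It rose with smoke, by 0.49 ± 0.15 on the log2 scale when smoke was averaged over the 3 particle conditions, a fold of 1.4 (limma, adjusted p = 0.0494). Mrc1 was 0.55 ± 0.18 higher (adjusted p = 0.0623) and Clec7a 0.32 ± 0.14 higher (adjusted p = 0.146), neither past the threshold. The remaining 4 receptors differed by between -0.20 and 0.11, so that 1 of 7 was called higher, 0 lower, and 3 had an unadjusted p under 0.05. In the same comparison 6.39% of all genes were called, and 3482 of 14217 had an unadjusted p under 0.05. A set of 7 is too small for either count to be set against those shares. The median difference was 0.11 over the receptors and -0.02 over all genes. In whole tissue, more cells of a type and more RNA per cell cannot be told apart.

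The values of Cd36 in the rats without smoke were 11.01, 11.24, 10.52 and 11.15 in the air group, 11.13, 9.85, 11.79 and 10.65 in the sand group and 11.69, 11.05, 11.51 and 11.49 in the silica group. In the rats with smoke they were 11.53, 11.31, 11.36 and 11.23 without particles, 11.80, 11.64, 11.61 and 11.68 with sand and 11.70, 11.53, 11.78 and 11.75 with silica. All 12 smoke-exposed rats lay above 11.14, the median of the 12 rats without smoke, but the ranges overlapped, since rat 304 of the sand group and rat 501 of the silica group were as high as the rats given both. The 12 values spanned 11.23 to 11.80 with smoke (SD 0.19) and 9.85 to 11.79 without it (SD 0.55). By group mean the order was smoke plus silica (11.69 ± 0.11, SD, n = 4), smoke plus sand (11.68 ± 0.08), silica (11.43 ± 0.27), smoke (11.36 ± 0.13), air (10.98 ± 0.32) and sand (10.86 ± 0.82). Neighbours in that order differed by less than the larger of their SDs, except smoke and air, whose gap of 0.38 was larger than both. The air mean includes rat 104, at 10.52 against 11.13 ± 0.11 in its mates, and the gap was 0.22 without that rat.

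**Figure D1:**
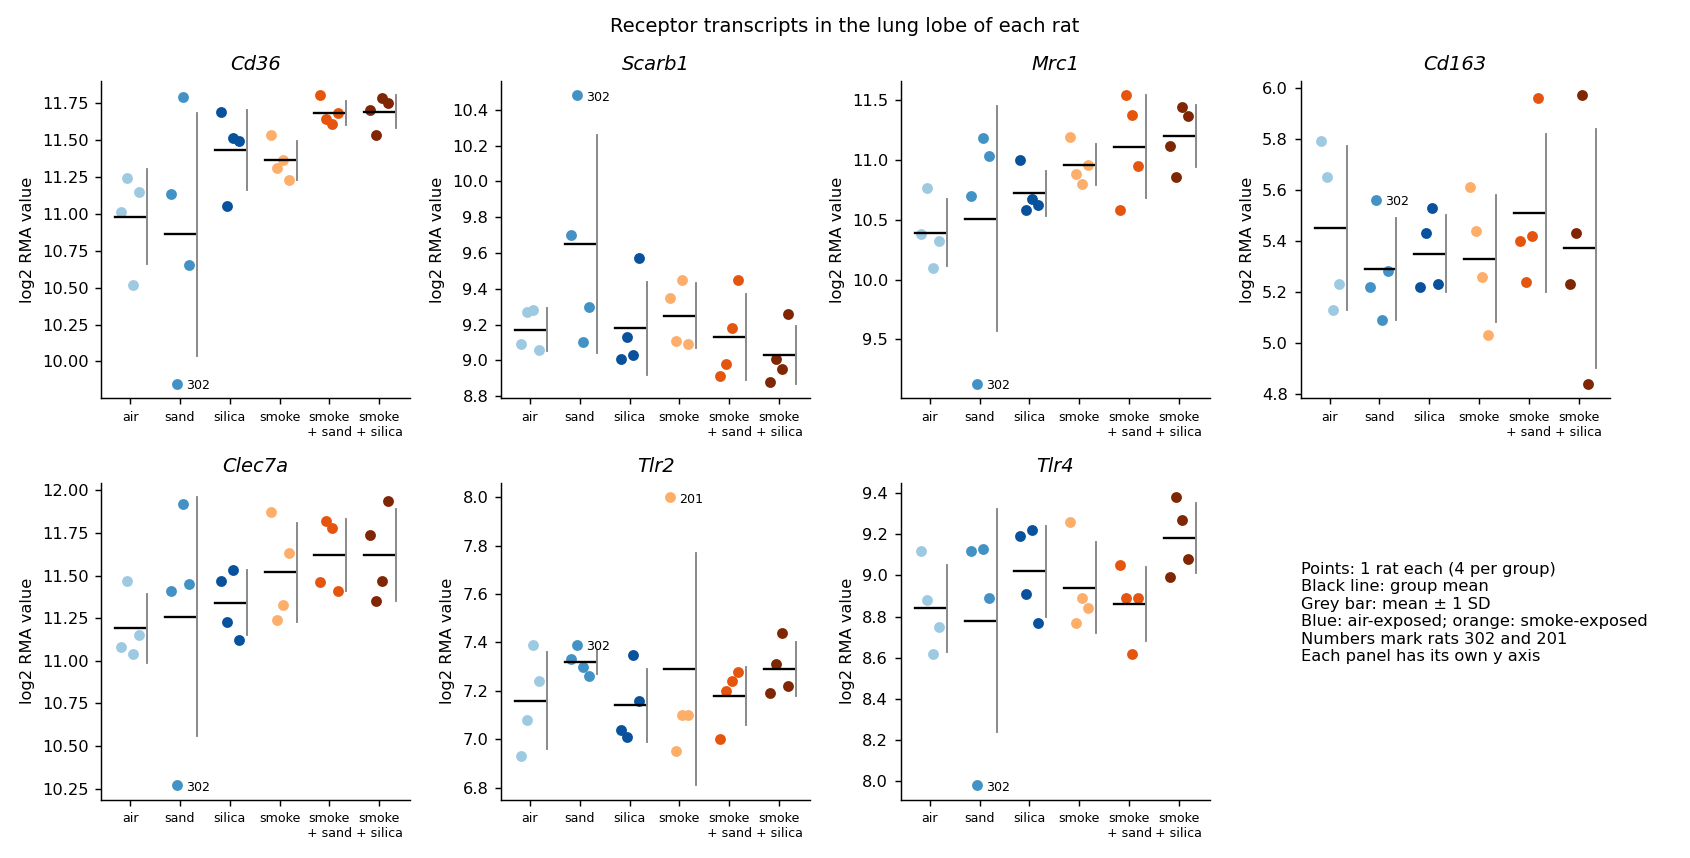
Log2 RMA value of each of the 7 receptors (vertical axis, its own range per panel) in each rat, by exposure group (horizontal axis); points are rats, 4 per group, black lines group means and grey bars the mean ± 1 SD. For Cd36 the 4 rats given smoke and sand lie between 11.61 and 11.80, and rat 302 of the sand group is lowest for Cd36, Mrc1, Clec7a and Tlr4 and highest for Scarb1.

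The Cd36 call rested close to the threshold. It ended when any 1 of 19 rats was left out (102, 103, 104, 105, 305, 502, 503, 504, 201, 203, 204, 402, 404, 405, 406, 602, 603, 604 or 605) and held without 301, 302, 304, 501 or 205, with differences of 0.38 to 0.59 and adjusted p-values of 0.00452 to 0.0882. Without rat 302, where Cd36 read 9.85 against 11.19 ± 0.57 in its mates, the difference was smaller and its error too, at 0.38 ± 0.11 (adjusted p = 0.0317). Without rats 104, 302 and 604 it was 0.31 ± 0.11 (adjusted p = 0.0726), and with arrays weighted by their quality 0.27 ± 0.10 (adjusted p = 0.0662). The direction was the same in each of these fits. A second probe set, annotated to Cd36 and to its neighbour Cd36l1 together, followed the first with a correlation of 0.98 over 24 arrays and was 0.34 ± 0.10 higher with smoke (limma, adjusted p = 0.0943 over the 10216 probe sets with several symbols or none). The signal of that probe set cannot be assigned to 1 of the 2 genes.

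**Figure D2:**
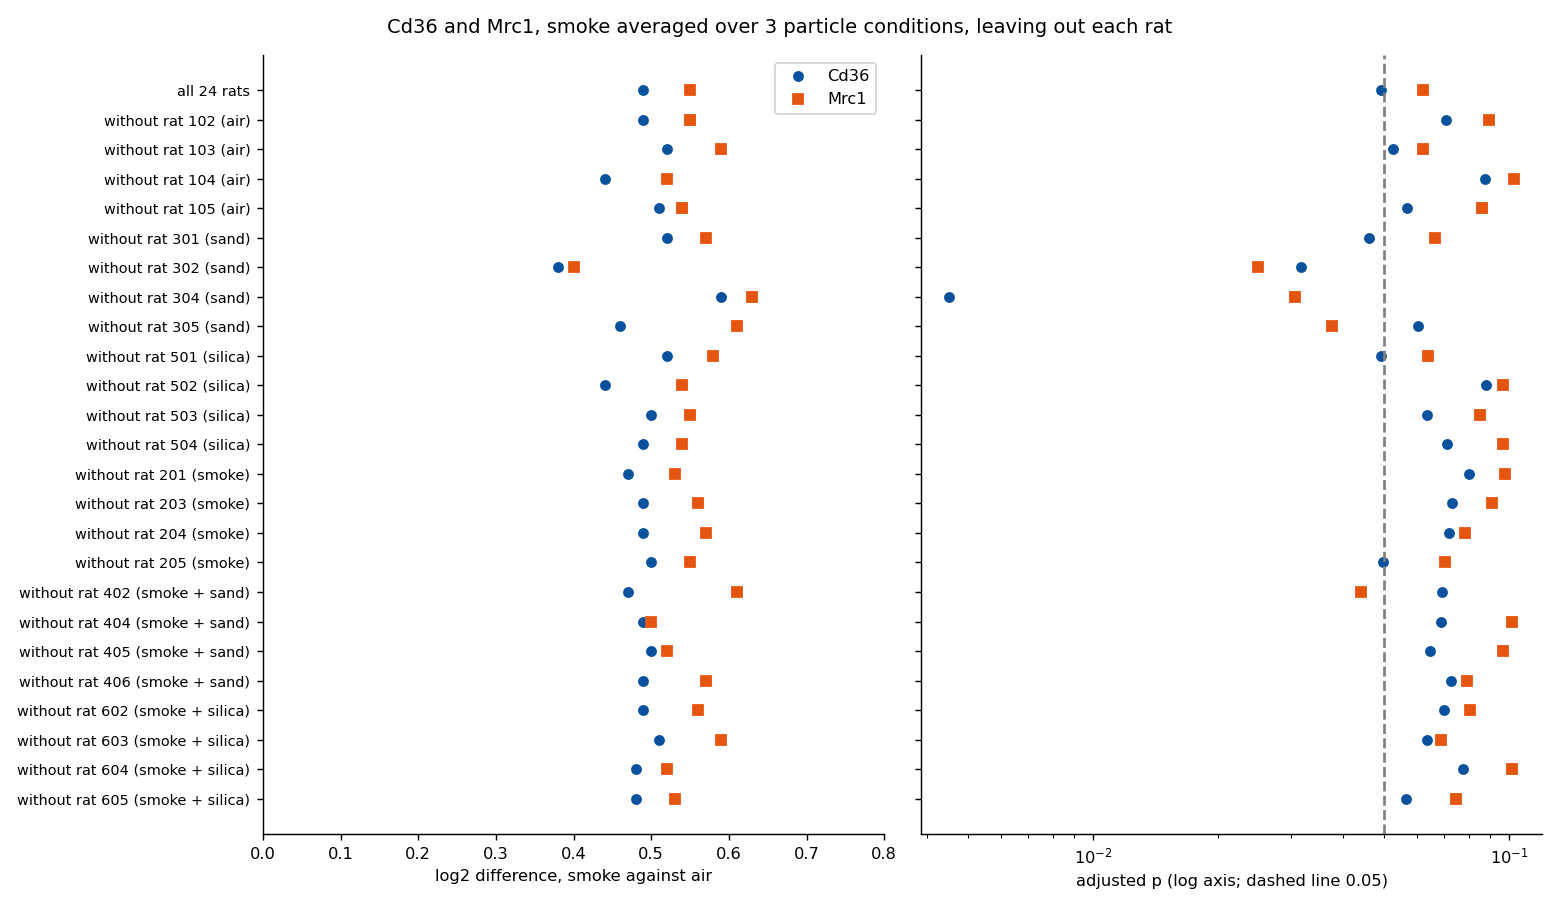
Log2 difference of smoke against air averaged over 3 particle conditions (left) and its adjusted p on a log axis (right, dashed line at 0.05) for Cd36 (circles) and Mrc1 (squares), with all 24 rats and with each rat left out. The differences stay between 0.38 and 0.63 while the adjusted p-values lie on both sides of 0.05.

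Mrc1 had the largest difference of the set under smoke and missed the threshold. Its values were 10.38, 10.77, 10.10 and 10.32 in the air group, 10.70, 9.13, 11.18 and 11.03 with sand and 11.00, 10.58, 10.67 and 10.62 with silica. With smoke they were 11.19, 10.88, 10.80 and 10.96 without particles, 10.58, 11.54, 11.38 and 10.95 with sand and 11.12, 10.86, 11.44 and 11.37 with silica. The 4 rats given smoke alone lay above the 4 controls with no overlap, as did the 4 given smoke and silica. The share of all genes with such separate groups was not counted. In these comparisons 0.893% and 3.77% of all genes were called, and with all rats Mrc1 was not (limma, adjusted p = 0.575 and 0.151). Of the 12 smoke-exposed rats 11 exceeded the median of 10.65 without smoke. The highest group mean was 11.20 ± 0.26 (SD, n = 4) in smoke plus silica and the lowest 10.39 ± 0.28 in air; means of neighbouring groups in the order smoke plus silica, smoke plus sand, smoke, silica, sand and air differed by less than the larger of their SDs, except smoke (10.96 ± 0.17) and silica (10.72 ± 0.19), whose gap was larger. Without rat 302, at 9.13 against 10.97 ± 0.24 in its mates, the averaged smoke difference was 0.40 ± 0.11 and passed the test (adjusted p = 0.025). It also passed without rat 304, 305 or 402, in 4 of 24 single omissions, and with array weights (0.35 ± 0.10, adjusted p = 0.0221). Over the omissions the adjusted p ranged from 0.025 to 0.103.

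Clec7a, the other lectin, gave a smaller difference of the same sign. Its values in the rats without smoke were 11.08, 11.47, 11.04 and 11.15 for air, 11.41, 10.27, 11.92 and 11.45 for sand and 11.47, 11.23, 11.53 and 11.12 for silica. With smoke they were 11.87, 11.24, 11.33 and 11.63 for smoke alone, 11.46, 11.82, 11.78 and 11.41 with sand and 11.74, 11.35, 11.47 and 11.94 with silica. Groups overlapped throughout, although 11 of 12 smoke-exposed rats were above 11.32, the median without smoke. Group means ran from 11.19 ± 0.20 (SD, n = 4) in air to 11.62 in both combined groups, and neighbours in the order of means differed by less than the larger of their SDs. Without rat 302 the averaged difference was 0.21 ± 0.09 (limma, adjusted p = 0.151).

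Scarb1 was the only receptor with a negative averaged smoke difference, -0.20 ± 0.12 (adjusted p = 0.311). Its values ranged from 9.01 to 10.48 (median 9.20) without smoke and from 8.88 to 9.45 (median 9.10) with it. The highest value by far was that of rat 302; its 3 sand-exposed mates were at 9.70, 9.10 and 9.30, and the air group at 9.09, 9.27, 9.28 and 9.06. Neighbouring group means, from sand (9.65 ± 0.61, SD, n = 4) through smoke, silica, air and smoke plus sand to smoke plus silica (9.03 ± 0.16), differed by less than the larger of their SDs. A second Scarb1 probe set correlated with the first at 0.95 and gave -0.21 ± 0.11 (adjusted p = 0.267).

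Cd163, Tlr2 and Tlr4 differed little with smoke. Cd163 was 0.04 ± 0.12 higher (95% interval -0.20 to 0.28, adjusted p = 0.87), with single values between 4.84 (rat 605) and 5.97 (rat 604) in the same group of smoke plus silica. Its sign turned in some fits, to -0.03 without rat 604 and -0.01 without rat 406 or with array weights. The values of the whole table run from 2.90 to 15.04, and no detection call was used here. The Cd163 probe set averaged 5.38, at percentile 11 of all genes, whose median level was 8.30. Whether a probe set this dim could show a change was not tested. Group means of Cd163 lay between 5.29 (sand) and 5.51 (smoke plus sand), and the SD within a group, 0.15 to 0.47, was larger than that spread in 4 of 6 groups.

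Tlr2 was 0.05 ± 0.09 higher with smoke (95% interval -0.14 to 0.24, adjusted p = 0.788), and -0.03 without rat 201. In the smoke group that rat was at 8.0, while the others were at 6.95, 7.10 and 7.10. The other 5 groups together ran from 6.93 to 7.44, so rat 201 was above all 23 other animals. The mean of 11 neutrophil markers in rat 201 was 9.96 against 8.12 ± 0.12 in its mates, and that of 17 alveolar macrophage markers 10.61 against 10.21 ± 0.05; their part in the Tlr2 value was not tested. Tlr2 group means lay between 7.14 ± 0.15 in silica and 7.32 ± 0.05 in sand (SD, n = 4), with neighbours in the order closer than the larger of their SDs.

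Tlr4 was 0.11 ± 0.11 higher with smoke (95% interval -0.12 to 0.34, adjusted p = 0.56), at 0.02 without rat 302 and -0.01 with array weights or without rats 104, 302 and 604. Its highest group was smoke plus silica, at 8.99, 9.38, 9.27 and 9.08, and its controls were at 9.12, 8.88, 8.62 and 8.75. These 2 groups overlapped, with means of 9.18 ± 0.17 and 8.84 ± 0.21 (SD, n = 4), and no neighbours in the order of means were farther apart than the larger of their SDs. Rat 302 was lowest again, at 7.98 against 9.05 ± 0.13 in its mates.

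Split by particle condition, smoke gave no call among the 7 receptors. Without particles 0 of 7 passed and 0 had an unadjusted p under 0.05, while 0.893% of all genes were called; Mrc1 was 0.57 ± 0.30 higher (adjusted p = 0.575), Cd36 0.38 ± 0.25 (adjusted p = 0.714) and Clec7a 0.33 ± 0.24 (adjusted p = 0.744). Under silica 0 of 7 passed, none at an unadjusted p under 0.05, against 0.00703% of all genes, with Mrc1 0.48 ± 0.30 and Cd36 0.26 ± 0.25 higher. These single-condition intervals were wide, and that of Cd36 without particles ran from -0.15 to 0.90.

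Under Iraqi sand the smoke differences of Cd36, Scarb1, Mrc1 and Clec7a all became smaller in size without rat 302. With all rats Cd36 was 0.83 ± 0.25 higher (fold 1.77, limma, adjusted p = 0.0906) and Scarb1 -0.52 ± 0.20 (adjusted p = 0.167). These 2 of 7 had an unadjusted p under 0.05, as did 2916 of all 14217 genes. After adjustment 0 of 7 passed, against 1.29% of all genes. Without that animal the values were 0.49 ± 0.20 for Cd36 (adjusted p = 0.271) and -0.24 ± 0.16 for Scarb1 (adjusted p = 0.535). Mrc1 moved from 0.61 ± 0.30 to 0.14 ± 0.20, and Clec7a from 0.36 ± 0.24 to 0.03 ± 0.17. Leaving out rat 304, the sand-exposed rat with the highest Cd36, raised the Cd36 difference to 1.14 and made it pass (adjusted p = 0.0155). Over the single omissions other than rat 302, between 30 and 703 of all genes were called, against 184 with all rats. The number without rat 304 is not given here, so this call has no share beside it.

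**Figure D3:**
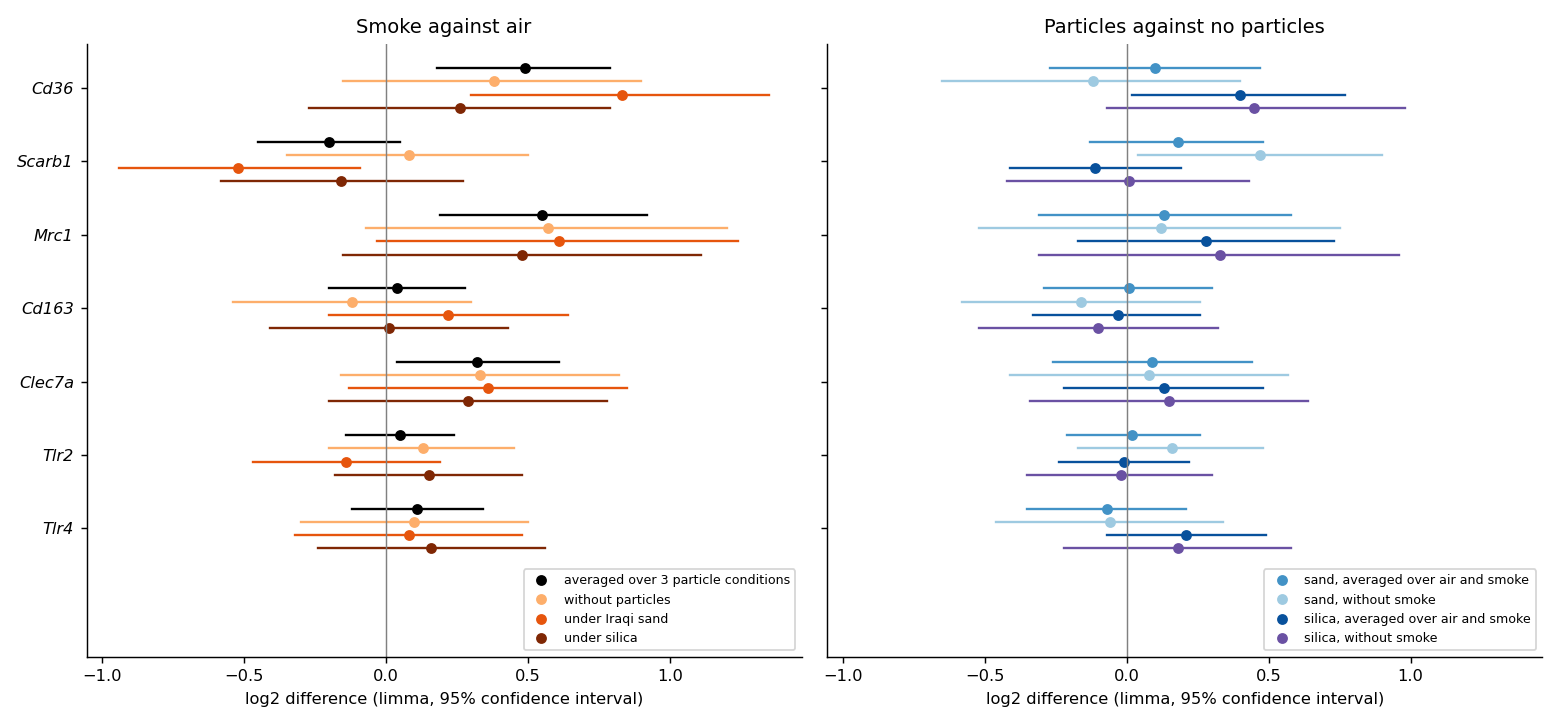
Log2 difference of each receptor (rows) with its 95% confidence interval from limma (horizontal axis), for smoke against air on the left and for each particle against no particles on the right; colours give the condition. The interval of Cd36 for smoke averaged over particle conditions, 0.18 to 0.79, lies above 0, and so do those of Mrc1, 0.19 to 0.92, and Clec7a, 0.04 to 0.61. Intervals are not adjusted for the number of genes. Among those shown that exclude 0, only that of Cd36 for averaged smoke belongs to a difference that passed after adjustment.

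The particles alone gave no call in the set. With sand and no smoke 0 of 7 passed (0.0281% of all genes). Scarb1 alone of the 7 had an unadjusted p under 0.05, as did 1456 of all 14217 genes. Scarb1 was 0.47 ± 0.20 higher (limma, adjusted p = 0.446), which fell to 0.19 ± 0.16 without rat 302. In the same comparison Mrc1 read 0.12 ± 0.30 with rat 302 and 0.58 ± 0.20 without it (adjusted p = 0.384). With silica and no smoke 0 of 7 passed (0.141% of all genes), and 0 had an unadjusted p under 0.05. Cd36 was 0.45 ± 0.25 higher there (adjusted p = 0.999), with 3 of the 4 silica rats above all 4 controls.

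Averaged over air and smoke, sand again called 0 of 7, none at an unadjusted p under 0.05, and 0% of all genes, of which 742 had an unadjusted p under 0.05. Silica averaged the same way called 0 of 7 against 0.345% of all genes, and 1664 of all 14217 genes had an unadjusted p under 0.05. Cd36 was the 1 receptor with an unadjusted p under 0.05 under silica, 0.40 ± 0.18 higher (adjusted p = 0.394, and 0.0854 without rat 302). The other differences under silica lay between -0.11 for Scarb1 and 0.28 for Mrc1.

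The group means of Cd36, Mrc1 and Clec7a were highest in the rats given both smoke and a particle. Against the air group, smoke plus sand gave 0.70 ± 0.25 for Cd36 (adjusted p = 0.246) and 0.72 ± 0.30 for Mrc1 (adjusted p = 0.356), with 0 of 7 called, 2 at an unadjusted p under 0.05 and 0.978% of all genes called. Of all 14217 genes, 1552 had an unadjusted p under 0.05 there. Smoke plus silica gave 0.71 ± 0.25 for Cd36 (adjusted p = 0.127) and 0.81 ± 0.30 for Mrc1 (adjusted p = 0.151), with 0 of 7 called, 2 at an unadjusted p under 0.05 and 3.77% of all genes called. In that comparison 2626 of all genes had an unadjusted p under 0.05. In both combined groups all 4 Cd36 values, the lowest of them 11.53, lay above the highest control, 11.24, and the same held for Mrc1 with silica but not with sand, where rat 402 was at 10.58. The share of all genes with such separate groups was not counted. Rat 302 is in neither group of these contrasts and enters only the shared estimate of the spread; with it left out the adjusted p-values were 0.0355 for Cd36 and 0.0328 for Mrc1 with sand, and 0.0152 and 0.00763 with silica, at the same differences. Without rat 304 Cd36 also passed with silica (adjusted p = 0.0455). Most single omissions gave no call. The limma adjusted p of Cd36 reached 0.615 with sand and 0.337 with silica, and that of Mrc1 0.688 and 0.363. Cd36 did not pass in 23 of 24 omissions with sand and 22 of 24 with silica. Mrc1 did not pass in 23 of 24 with either particle. The share of all genes called in these contrasts without rat 302 is not given here. The 2 combined contrasts share their 4 control rats.

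Whether the combined exposure differed from the sum of its parts was tested as an interaction. No receptor passed for smoke with sand (0 of 7, none at an unadjusted p under 0.05, 0.00703% of all genes) or for smoke with silica (0 of 7, none at an unadjusted p under 0.05, 0% of all genes, 318 of which had an unadjusted p under 0.05). The Cd36 interaction with sand was 0.45 ± 0.36 (95% interval -0.29 to 1.20, adjusted p = 0.698) and 0.11 ± 0.27 without rat 302. That of Scarb1 was -0.59 ± 0.29 (adjusted p = 0.57) and -0.31 ± 0.21 without rat 302. For Mrc1 it was 0.04 ± 0.43 and turned to -0.42 ± 0.27 without that rat (adjusted p = 0.749). With 4 rats per group these intervals span both signs for Cd36 and Mrc1.

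Markers of alveolar macrophages moved in the same comparison as Cd36. Of 17 such markers outside the set, 12 rose with smoke averaged over particles and 0 fell, with a median difference of 0.46, and the counts were 12 and 0 without rat 302 and 11 and 0 without rats 104, 302 and 604. With all rats 6.39% of all genes were called in that comparison, a share that applies to the counts with all rats only. The 4 with the strongest change were Gpnmb, a glycoprotein of lysosome-rich macrophages (1.12 ± 0.11, adjusted p = 1.33e-05), the lysosomal protease Ctsd (0.59 ± 0.06), the galectin Lgals3 (0.54 ± 0.06) and Cd68 (0.94 ± 0.11). The list's mean level ran from 9.41 to 9.80 in the air group, 9.67 to 10.05 with sand and 9.81 to 10.13 with silica, and from 10.15 to 10.61 with smoke, 10.00 to 10.37 with smoke plus sand and 10.31 to 10.75 with smoke plus silica. The part of these markers in the Cd36 result was not tested. Across the 24 rats the list's mean correlated with Mrc1 at 0.61, Cd36 at 0.50 and Clec7a at 0.49 (Spearman's rho 0.79, 0.64 and 0.62). The correlations were 0.78, 0.60 and 0.61 without rat 302. They were 0.54, 0.48 and 0.52 without the 2 rats farthest from the list's median (105 and 604). As deviations from group means they were 0.27, 0.03 and 0.22.

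Markers of other cell types are given by their counts in the same comparison, and differences between the lists were not tested. With all rats 6.39% of all genes were called there, and 3482 of 14217 had an unadjusted p under 0.05. Leaving out rat 302 also raised the number of all genes called, as given in the last section. Counts without that rat are therefore not to be set against 6.39%. The same holds for counts without rats 104, 302 and 604, for which the number of all genes called is not given. Of 12 endothelial markers 2 fell with smoke, the tight junction gene Cldn5 (-0.36 ± 0.09, adjusted p = 0.0198) and Gpihbp1, the capillary anchor of lipoprotein lipase (-0.63 ± 0.17, adjusted p = 0.0335, lost when any of 9 single rats was left out, rat 104 among them), and 0 rose; the median was -0.12. Gpihbp1 was at an adjusted p of 0.0864 without rats 104, 302 and 604. Cd36 correlated with the endothelial mean at -0.62 over 24 rats (rho -0.70), and at -0.52 without rats 104 and 604. Its correlation was -0.70 with the heart muscle mean and -0.63 with the adipocyte mean, at -0.51 and -0.43 without rat 302. Among lists described below it was -0.68 with receptor signalling genes, 0.60 with lipid genes and 0.60 with C-type lectins. Those were -0.30, 0.65 and 0.36 without rat 302. The remaining lists, the alveolar macrophage one included, gave values between -0.26 and 0.50. Of 15 markers of monocytes and interstitial macrophages 1 fell, Adgre1, which encodes F4/80 (-0.60 ± 0.09, adjusted p = 0.000276), and 0 rose, while without rat 302 2 rose. Of 11 neutrophil markers 2 rose, the chemokine receptor Cxcr1 (1.00 ± 0.13) and the calprotectin subunit S100a9 (1.35 ± 0.23), and 3 did so without rat 302; the median of that list was 0.45. In limma 0 of 6 adipocyte markers (1 at an unadjusted p under 0.05) and 0 of 12 heart muscle markers (0 unadjusted) passed. Of 10 alveolar type 2 markers 1 fell, Lpcat1 (-0.40 ± 0.06), and 2 fell without rat 302. Of 8 airway secretory markers 2 rose, Agr2 (1.66 ± 0.37) and Muc5b (1.99 ± 0.50), with 3 without rat 302 and 4 without rats 104, 302 and 604, and a list median of 1.03. Of 10 proliferation markers 0 passed in limma (4 unadjusted), and 1 rose without rat 302. Their part in the receptor values was not tested.

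Among 15 other scavenger receptors 1 rose and 1 fell with smoke averaged over particles, where 6.39% of all genes were called. These were the macrophage sialomucin Cd68, from 10.35 to 11.29 (adjusted p = 3.41e-05), and Ager, the receptor for glycation end products of alveolar type 1 cells (-0.20 ± 0.05, adjusted p = 0.012). Colec12 (-0.34 ± 0.11) and Scarf2 (-0.21 ± 0.07) did not pass, and the counts without rat 302 were 3 and 3. The fit without that rat also called more of all genes, as given in the last section. Among 11 other C-type lectins Cd302 rose (0.32 ± 0.09, adjusted p = 0.0291, lost without rat 502, 201 or 603) and 0 fell, with Clec1b at -0.31 ± 0.12. Of 14 Fc, complement and dead-cell receptors 3 rose: the lipid sensor Trem2 (1.15 ± 0.22, adjusted p = 0.00295) and the integrin chains Itgax (0.46 ± 0.13, adjusted p = 0.034) and Itgb2 (0.23 ± 0.07, adjusted p = 0.0476). The Itgax call was lost in 13 and the Itgb2 call in 18 of 24 single omissions, and without rats 104, 302 and 604 only 1 of the 14 rose. The number of all genes called without those 3 rats is not given.

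Of 8 other Toll-like receptors and partners 2 rose, Cd14, which hands lipopolysaccharide to Tlr4 (0.51 ± 0.12, adjusted p = 0.0151), and Ly96, the MD-2 subunit that binds it (0.34 ± 0.08, adjusted p = 0.0126); both held in every single omission. Of the 8, 4 were above 0, with a median of 0.02. The difference between these changes and that of Tlr4 was not tested. Tlr7 (0.38 ± 0.12) and Ly86 (-0.33 ± 0.11) did not pass. Of 17 adapters, kinases and inhibitors downstream, from Myd88 to Syk and Card9, 0 passed in limma and 4 had an unadjusted p under 0.05, led by the inhibitor Nfkbia (-0.27 ± 0.08, adjusted p = 0.0514). In this comparison, smoke averaged over particles, 6.39% of all genes were called and 3482 of 14217 had an unadjusted p under 0.05.

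Genes of lipid uptake and export were all on the positive side with smoke averaged over particles. Of 13 measured, 3 rose: the cholesterol exporter Abcg1 (0.43 ± 0.07, adjusted p = 0.00154), the lysosomal lipase Lipa (0.28 ± 0.06, adjusted p = 0.00847) and lipoprotein lipase, Lpl (0.39 ± 0.09, adjusted p = 0.0143). The median was 0.22, all 13 differences were above 0, and 10 had an unadjusted p under 0.05. Of all 14217 genes 6.39% were called, and 3482 had an unadjusted p under 0.05. Without rat 302, 4 of the 13 rose, in a fit that also called more of all genes. Of 12 soluble proteins that coat particles 1 rose, Lgals3, which together with Cd68, Itgax and Lpl also stands in the macrophage list, and 3 did so without rat 302. The complement genes C1qa, C1qb and C1qc were between 0.26 and 0.33 higher and did not pass. These lists were drawn up with earlier results of the same arrays known, so their counts are not independent evidence of a direction.

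The 7 receptors varied together in part. Over 24 rats Mrc1 and Clec7a correlated at r = 0.91 (Spearman's rho 0.82), at 0.80 without the 2 rats farthest from the Mrc1 median (302 and 104), and at 0.89 as deviations from group means. Cd36 correlated with Mrc1 at 0.80 (rho 0.62) and with Clec7a at 0.79 (rho 0.68), but at 0.51 and 0.53 without rats 302 and 104. Its correlation with Scarb1 was -0.67 and rested in part on those rats, at -0.31 without them. The pairs of Tlr4 with Cd36 (0.70), Mrc1 (0.62) and Clec7a (0.63) fell to 0.29, 0.09 and 0.26 when the 2 farthest rats were left out. Correlations of Cd163 and Tlr2 with the other receptors lay between -0.27 and 0.26. All 21 pairs share the arrays and the group differences, and no p is given.

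**Figure D4:**
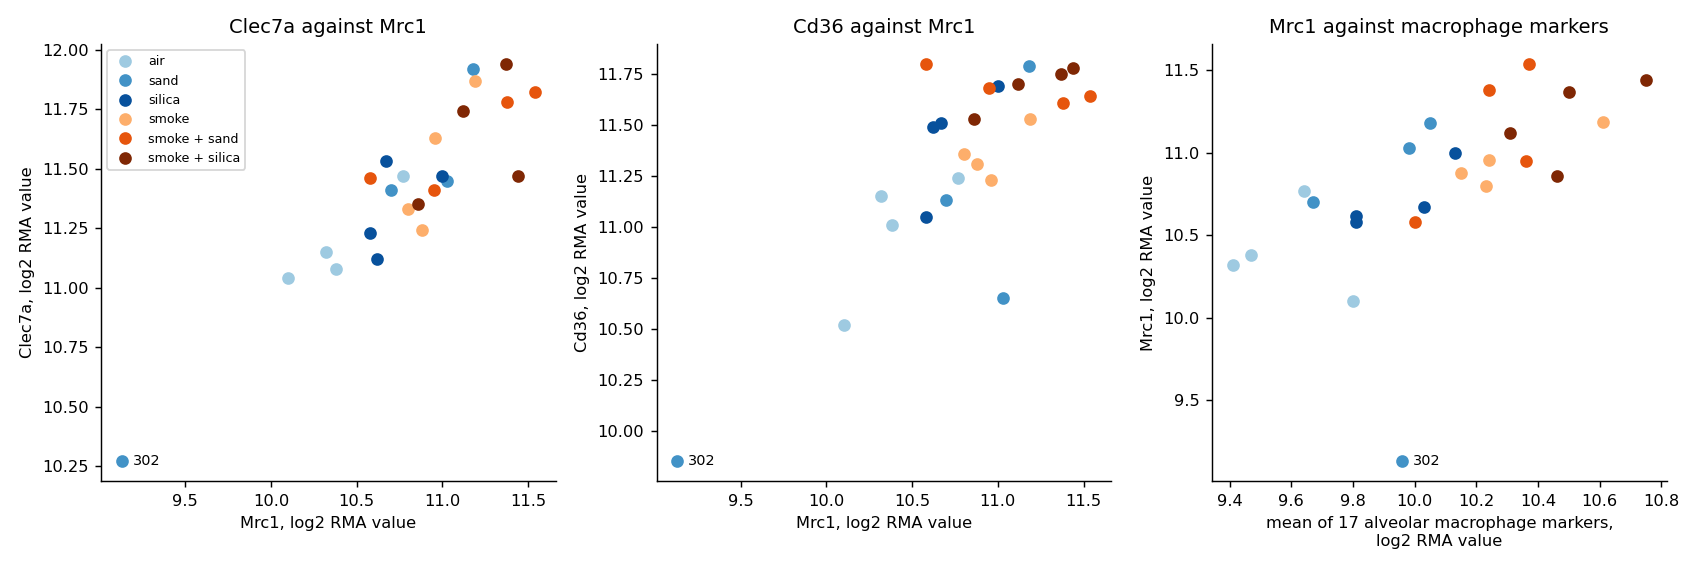
Log2 RMA values of 24 rats for Clec7a against Mrc1, Cd36 against Mrc1, and Mrc1 against the mean of 17 alveolar macrophage markers; points are rats, coloured by group, with rat 302 marked. Clec7a and Mrc1 lie along 1 line that includes rat 302, whereas that rat is far below the others of its macrophage marker level in the third panel.

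Among all other genes, those most like each receptor over 24 arrays, by Pearson's r and the 3 highest named, were as follows. Mrc1 was followed by Fam3c (0.942), Igsf6 (0.912) and Clec7a (0.909), and Clec7a by Igsf6 (0.929), the leukocyte actin-bundling gene Lcp1 (0.924) and Mrc1 (0.909). Igsf6 was 0.70 ± 0.20 higher with smoke (adjusted p = 0.0432), a call that was lost when any of 18 single rats was left out and held without 302 (adjusted p = 0.00434). The genes nearest to Cd36 were Cpne3 (0.887), Usp8 (0.884) and Rmdn2 (0.883), at 0.776 to 0.794 without rat 302. Tlr2 went with Cd300a (0.857), the oxidase subunit gene Ncf4 (0.835) and its partner receptor Tlr1 (0.821), and Tlr4 with Nxpe4 (0.891), Alg13l1 (0.872) and Skic3 (0.867). For Cd163 they were Vegfd (0.83), Adamtsl2 (0.769) and Spink8 (0.731). The likeness of Scarb1 to Atpaf2 (0.868), Cdk10 (0.867) and Mras (0.864) fell to between 0.613 and 0.642 without rat 302.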

How the data were processed

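Lung RNA of 24 rats was measured on 1 array each, and groups and animal numbers came from the sample labels. Values were deposited as log2 intensities made with RMA, per the submitters' processing notes; its version is not given in the sources used here. RMA gives every array the same distribution, which hides a shift common to most genes and shrinks differences of dim probe sets. Animal numbers are unique, so no pairing or batch was entered.

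Of 31099 probe sets, 57 controls were left out. A gene was its brightest probe set with exactly 1 symbol in the platform annotation, over 24 arrays. One model of 6 group means was fitted with limma 3.58.1 in R 4.3.3 (18 residual degrees of freedom, no filter on low values), adjusted within each of 12 comparisons over 14217 genes, and tested on simulated data. P-values measure spread among rats, and 4 per group limit the precision.

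Named genes were the 7 receptors, the 3 genes most like each, and up to 4 genes with the largest moderated t of each of 16 lists. Members and lists were chosen with earlier results of these data known. Alternatives were another variance model, a level filter, averaging all probe sets of a gene, only the groups compared, array weights, recentring, requantiling, the RNA integrity number on 19 arrays, rats left out singly, and without rat 302 or rats 104, 302 and 604. Fitting the 19 arrays without the covariate was chosen after seeing the data. Promoter sequences are from RefSeq.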

Additional observations from a re-analysis of the deposited data

Results flagged for a closer look

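Tlr2 in rat 201 of the smoke group was at 8.0, with its nearest mate at 7.10. The gap took 0.852 of the group's range, above Dixon's 95% critical value for 4 animals. It was the only such value among 42 combinations of receptor and group, of which chance marks about 1 in 20. Neutrophil markers averaged 9.96 in that rat and 8.12 ± 0.12 in its mates; their part in the value was not tested.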

How the results depend on the processing

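The number of receptors called for smoke averaged over particles was 1. It was 0 with trend and robust shrinkage, with all probe sets of a gene averaged, with the RNA integrity number as a covariate, without rats 104, 302 and 604, and on the 19 arrays without the covariate, and 2 with genes at or above the median level and without rat 302; leaving out 1 rat gave 0 to 2. Under sand it was 0, and 0 to 1 over single omissions. Against air, smoke plus sand and smoke plus silica called 0, but 2 each with array weights or without rat 302, and smoke plus silica also 2 with only its groups fitted and 0 to 1 over the single omissions other than rat 302. The other 375 counts kept their value. Small differences changed sign: Cd163 (0.04) was -0.01 with array weights, 0.00 on the 19 arrays with or without the covariate, -0.03 without the 3 rats and -0.03 to 0.10 over single omissions, Tlr2 (0.05) -0.03 to 0.09 over these, and Tlr4 (0.11) -0.01 with array weights and without the 3 rats. The cause was not tested. All genes called for averaged smoke were 908 in the main setting, 210 with the covariate, 246 on the same arrays without it, 1463 without rat 302, 2651 with array weights and 586 to 1260 over the other omissions. For smoke plus sand they were 139 and 1172, and for smoke plus silica 536 and 2477, without and with weights. No setting moved the median of all genes by over 0.03. No paired analysis was possible because the animal numbers differ between all groups.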
